A study of Mus musculus with 6 samples.

Results

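The transcripts of the hypoxia-inducible factor (HIF) oxygen-sensing pathway were examined in the hind limb muscles of unexercised mice. The members are 10 of the 20632 genes listed in the deposited table, and they were taken by gene symbol. They are the HIF subunits *Hif1a*, *Epas1* and *Arnt*, the prolyl hydroxylases *Egln1*, *Egln2* and *Egln3*, the ubiquitin ligase component *Vhl*, the asparaginyl hydroxylase *Hif1an*, and the target genes *Vegfa* and *Car9*. RNA of each mouse came from pooled hind limb muscles (tibialis anterior, extensor digitorum longus, gastrocnemius, soleus and quadriceps). The controls were 3 Baf155 WT mice, which carry floxed *Baf155* alleles without Cre (Baf155 f/f). They were compared with 3 Baf155 ΔMF mice (*MCK*-Cre; Baf155 f/f; "Baf155 -/-" in the sample labels). All 6 mice were 3 months old, on a C57BL/6 background (C57BL/6J in the study's methods), and received no treatment. *Baf155* (*Smarcc1*) encodes a core subunit of the SWI/SNF chromatin remodeling complex. The muscle creatine kinase promoter drives Cre in striated muscle, heart included, so the other cells of the muscle keep their floxed alleles. The comparison asks whether the transcripts of the oxygen-sensing machinery differ at rest when Baf155 is absent from muscle fibers.

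HIF is a dimer of an oxygen-regulated alpha subunit and a stable beta subunit. With oxygen present, prolyl hydroxylases mark the alpha subunit, VHL binds the marked protein, and the ubiquitin ligase built around VHL sends it to the proteasome. Regulation of HIF-1α by oxygen is therefore mostly at the protein level, and the transcript level of *Hif1a* does not report the amount or activity of the protein. Some genes of the pathway, *Egln3* among them, are also HIF targets and form a feedback loop.

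HIF binds a short DNA core, ACGTG or GCGTG. These letters were searched on both strands from 250 bases before to 50 bases after each RefSeq gene start (GRCm38.p6), a window that was at hand for 9 of the 10 members and not for *Epas1*. ACGTG was found at the first listed start of 5 of the 9 members, against 19.6% of the 32851 windows of all genes. GCGTG was found in 3 of the 9, against 32.4% of all windows, and the windows of *Vhl* and *Hif1an* held neither. At *Vegfa* both cores lay at the second listed start alone. Hits of ACGTG inside CACGTG (7.15% of all windows) are counted on both strands. A match is a description of the letters and not a binding site. The stretches around the core are shown for the 5 members that held ACGTG, because these include all 3 prolyl hydroxylases and *Hif1a* itself. Each reads 5′ to 3′ along the gene, and capitals mark ACGTG or, where the core lies on the other strand, CACGT.
*Hif1a*, chr12:73907717-73907816, plus strand, 150 to 51 bases before the start: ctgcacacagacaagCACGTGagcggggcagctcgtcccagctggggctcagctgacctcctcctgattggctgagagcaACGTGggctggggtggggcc
*Egln1*, chr8:124949318-124949380, minus strand, 126 to 64 bases before the start: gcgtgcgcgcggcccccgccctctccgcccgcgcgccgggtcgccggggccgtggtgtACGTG
*Egln2*, chr7:27166803-27166862, minus strand, 60 to 1 bases before the start: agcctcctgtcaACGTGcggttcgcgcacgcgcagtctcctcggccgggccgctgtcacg
*Egln3*, chr12:54204065-54204124, minus strand, 250 to 191 bases before the start: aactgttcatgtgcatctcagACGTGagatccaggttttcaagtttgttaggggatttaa
*Car9*, chr4:43506996-43507025, plus strand, 30 to 1 bases before the start: ctatttccgatgCACGTacagcccgtccac
The *Car9* stretch is shown short because GENCODE M21 places it inside the first exon of that gene. The last 7 bases of the *Egln1* stretch, which hold its ACGTG, also lie in a GENCODE M21 exon of *Egln1*, since GENCODE starts that gene farther upstream than RefSeq. In *Hif1a* the first core sits in the palindrome CACGTG, and a further ACGTG lies 70 bases before the start. *Egln2* also holds a CACGTG that begins 4 bases before the start and runs past it. The stretch shown cuts that palindrome and leaves it unmarked. No window of the 9 members held the STAT-type motif TTCNNNGAA, which was present in 8.3% of all windows.

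The 6 libraries held 8426022 to 12469335 counts. The floor was set at 3 counts per library, or 0.230 to 0.351 CPM (counts relative to a library's total after TMM correction). This floor covers counting error only. *Smarcc1* was lower in the 3 Baf155 ΔMF mice (7.05, 6.54 and 7.72 CPM) than in the 3 Baf155 WT mice (23.4, 19.5 and 17.0 CPM), with a log2 fold change of -1.49 ± 0.15 (SE) and an adjusted p of 0.00907 from edgeR, and the groups did not overlap. In fits without Baf155 WT mouse 2, Baf155 ΔMF mouse 1 or Baf155 ΔMF mouse 2 its adjusted p was 0.0616, 0.0533 and 0.0678. Over all 12116 genes tested, 3 genes (0.0248%) passed an adjusted p of 0.05, 963 (7.95%) had an unadjusted p under 0.05, and 1305 (10.8%) did not overlap between genotypes. Markers of muscle fibers were at the top of the table (*Myh4*, 43271 to 51920 CPM). The libraries of Baf155 WT mice 2 and 3 stood apart from the rest on the first principal component (43.3% of the variance), at 25.0 and 22.5 against -17.1 to -1.56 for the other 4 libraries, Baf155 WT mouse 1 included. The sample titles begin with MS13 for Baf155 WT mouse 1 and Baf155 ΔMF mice 1 and 2, with MS15 for Baf155 WT mice 2 and 3, and with MS14 for Baf155 ΔMF mouse 3. The labels do not say what these prefixes stand for. In the mice with MS14 and MS15, prefix cannot be told apart from genotype.

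None of the 9 members tested passed the adjusted limit, and all 10 members overlapped between genotypes. The smallest adjusted p was 0.601 (*Hif1an*) and the largest 0.932 (*Egln2*). By unadjusted p, 1 of the 9 passed 0.05, against 7.95% of all genes tested. DESeq2 and limma-voom likewise gave 0 members at the adjusted limit and *Hif1an* alone at the unadjusted one. The fitted log2 fold change was above 0 for 8 of the 9 and below 0 for *Vegfa*, with a median of 0.10 beside -0.00095 over all genes tested. With 3 mice per genotype the standard errors had a median of 0.14 on the log2 scale. The 95% intervals are those of the fit with all 6 mice and no covariate, and none are given for other fits. They excluded a change of 1.5-fold downward for all 9 members. A change of 1.5-fold upward was excluded for 5 of them (*Hif1a*, *Egln1*, *Egln2*, *Vhl* and *Vegfa*). For *Epas1*, *Arnt*, *Egln3* and *Hif1an* an increase of that size was not excluded. RNA from whole muscle cannot tell fewer cells of a type from less RNA per cell.

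**Figure D1:**
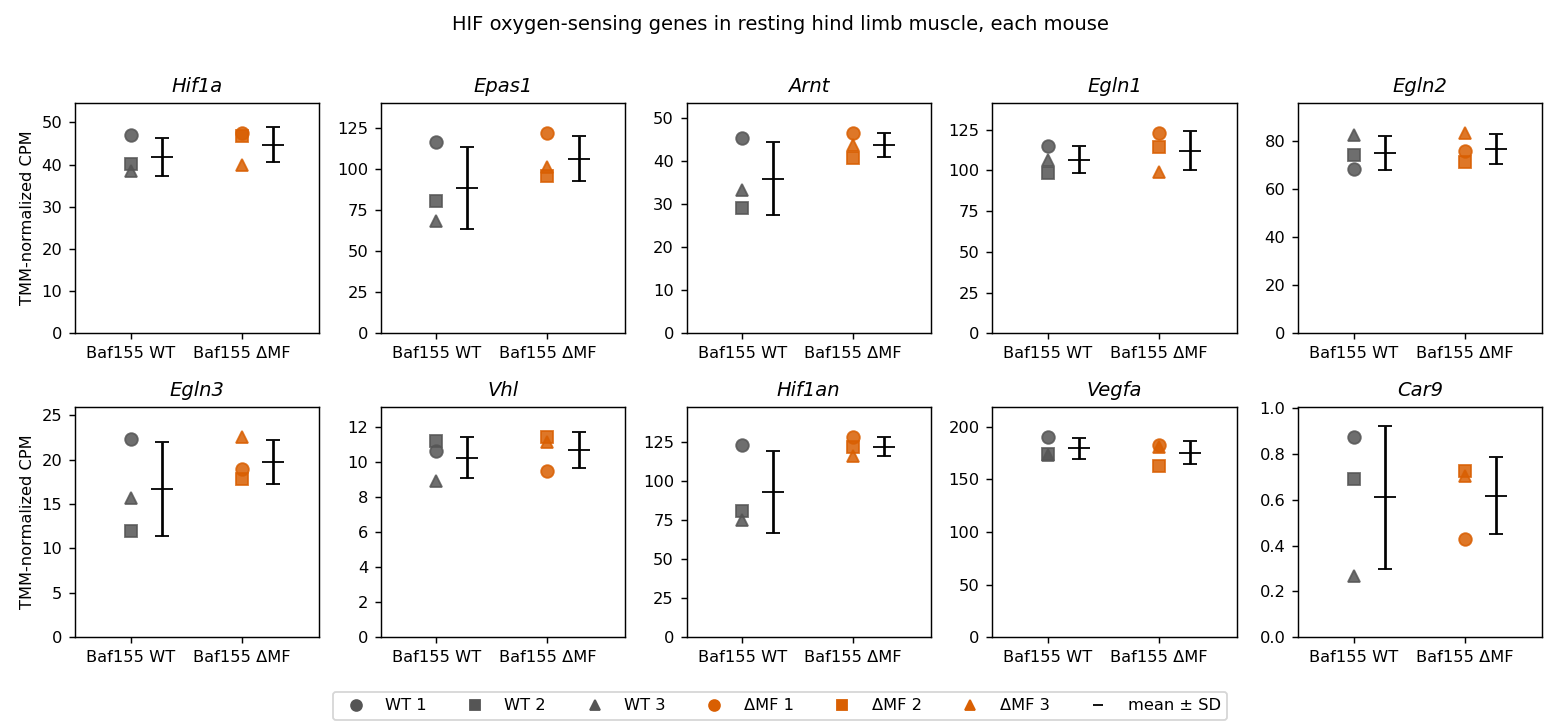
TMM-normalized CPM of the 10 members (1 panel each, vertical axis from 0) in the 3 Baf155 WT mice (grey) and the 3 Baf155 ΔMF mice (orange), with the mean ± SD beside the points. The genotypes overlap in every panel, and in the panels of *Epas1*, *Arnt*, *Egln3* and *Hif1an* the circle of Baf155 WT mouse 1 sits with the Baf155 ΔMF mice.

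*Hif1a* encodes HIF-1α, the alpha subunit best known for the induction of glycolytic genes. Its expression in the Baf155 WT mice was 46.9, 40.2 and 38.5 CPM, and in the Baf155 ΔMF mice 47.5, 46.8 and 39.9 CPM. Each group held a mouse near the top of the range and a mouse near its bottom. The log2 fold change was 0.10 ± 0.11 (SE), with a 95% interval from -0.14 to 0.34 and an adjusted p of 0.802 by edgeR. The gene lies at chr12:73901375-73947530 (GRCm38, plus strand), where GENCODE M21 places *Gm49321* on the same strand and *Gm15283* on the other. The library kit keeps strand, but whether the counting used it was not given in the sources used here, so reads of these genes may be shared.

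*Epas1* encodes HIF-2α, the other main oxygen-regulated alpha subunit, which is abundant in endothelial cells. The Baf155 WT mice had 116, 80.3 and 68.4 CPM, and the Baf155 ΔMF mice had 122, 95.4 and 102 CPM. Baf155 WT mouse 1 was above Baf155 ΔMF mice 2 and 3, while the other Baf155 WT mice were below all Baf155 ΔMF mice. The log2 fold change was 0.27 ± 0.17 (SE; 95% interval -0.11 to 0.65, adjusted p = 0.669 by edgeR).

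*Arnt* encodes HIF-1β, the stable partner of both alpha subunits. Its values were 45.4, 29.1 and 33.2 CPM in Baf155 WT mice and 46.4, 40.7 and 43.7 CPM in Baf155 ΔMF mice. The order was the same as for *Epas1* in that Baf155 WT mouse 1 fell among the Baf155 ΔMF mice and the other Baf155 WT mice fell below them. Its log2 fold change was 0.29 ± 0.15 (SE; 95% interval -0.040 to 0.61), with an unadjusted p of 0.0793 and an adjusted p of 0.627 by edgeR.

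*Egln1* encodes PHD2, the prolyl hydroxylase that sets HIF-1α in most cells at normal oxygen. The Baf155 WT mice had 115, 98.5 and 107 CPM and the Baf155 ΔMF mice had 123, 115 and 98.9 CPM. The lowest values of the groups lay side by side. The genotypes differed by a log2 fold change of 0.075 ± 0.10 (SE; adjusted p = 0.844 by edgeR).

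*Egln2* encodes PHD1, a prolyl hydroxylase known in muscle for its part in oxygen use. It was the member with the largest adjusted p, with 68.5, 74.0 and 82.5 CPM in Baf155 WT mice and 75.9, 71.1 and 83.4 CPM in Baf155 ΔMF mice. The groups covered nearly the same range, and the log2 fold change was 0.033 ± 0.10 (SE; adjusted p = 0.932 by edgeR). *Cyp2t4* overlaps *Egln2* on the opposite strand in GENCODE M21 (chr7:27158658-27166802).

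*Egln3* encodes PHD3, the prolyl hydroxylase that HIF itself induces most strongly in many cells. Its values were 22.3, 11.9 and 15.7 CPM in Baf155 WT mice and 18.9, 17.9 and 22.6 CPM in Baf155 ΔMF mice. The Baf155 WT group spanned 1.87-fold from its lowest to its highest mouse, the widest spread in that group among the 9 members tested. Its log2 fold change was 0.26 ± 0.20 (SE; 95% interval -0.18 to 0.69, adjusted p = 0.709 by edgeR).

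The mix of the 3 hydroxylase transcripts was compared per length, as CPM per kilobase of exon (bases covered by any GENCODE M21 exon of the gene). *Egln3* made up 13.0%, 7.69% and 9.07% of their sum in the Baf155 WT mice and 10.4%, 10.5% and 12.9% in the Baf155 ΔMF mice. *Egln1* held 41.8% to 50.01% and *Egln2* 37.7% to 45.3% over the 6 mice, so *Egln3* was the smallest part in each mouse. The *Egln3* share was 9.91% ± 2.73 (SD, n = 3) against 11.2% ± 1.42 (SD, n = 3), a difference of 1.34 percentage points (exact permutation test, two-sided, p = 0.5). With 20 assignments of 6 mice this test cannot give a p below 0.1. The log2 ratio of *Hif1a* to *Epas1* on the same scale was -1.39, -1.08 and -0.91 in Baf155 WT mice and -1.44, -1.10 and -1.43 in Baf155 ΔMF mice. *Epas1* was thus the more abundant alpha subunit transcript in all 6 mice, and the groups overlapped (difference of means -0.20, exact permutation test, two-sided, p = 0.2).

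*Vhl* encodes the substrate receptor that binds hydroxylated HIF alpha. Its values were 10.6, 11.2 and 8.92 CPM in Baf155 WT mice and 9.50, 11.4 and 11.1 CPM in Baf155 ΔMF mice, from 89 to 146 counts per library. The groups overlapped over most of their range, and the log2 fold change was 0.060 ± 0.14 (SE; adjusted p = 0.911 by edgeR).

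*Hif1an* encodes FIH, an asparaginyl hydroxylase that blocks the binding of coactivators to HIF alpha. It had the smallest p-value of the members. Its values were 123, 80.8 and 75.0 CPM in Baf155 WT mice and 128, 121 and 116 CPM in Baf155 ΔMF mice. The Baf155 ΔMF mice lay close together (121.9 ± 6.13 CPM, SD) and the Baf155 WT mice did not (93.0 ± 26.3 CPM, SD), since Baf155 WT mouse 1 was above Baf155 ΔMF mice 2 and 3. The log2 fold change was 0.39 ± 0.16 (SE; 95% interval 0.040 to 0.75), with an unadjusted p of 0.0323 and an adjusted p of 0.601 by edgeR. In each fit that left out a mouse other than Baf155 WT mouse 1, the unadjusted p of *Hif1an* was between 0.0522 and 0.133.

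*Vegfa*, the main angiogenic growth factor and a HIF target, was the most abundant member. It was measured at 190, 174 and 173 CPM in Baf155 WT mice and 182, 163 and 181 CPM in Baf155 ΔMF mice. The highest mouse was a Baf155 WT mouse and the lowest a Baf155 ΔMF mouse. Its log2 fold change was -0.033 ± 0.092 (SE; 95% interval -0.23 to 0.17, adjusted p = 0.928 by edgeR).

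*Car9* encodes carbonic anhydrase 9, a membrane enzyme that HIF-1α strongly induces in hypoxic cells. It had 9, 9 and 3 counts in Baf155 WT mice and 4, 7 and 6 counts in Baf155 ΔMF mice, or 0.874, 0.689 and 0.268 CPM against 0.427, 0.727 and 0.702 CPM. Baf155 WT mouse 3 was at the floor of 3 counts, and the other mice held 4 to 9 counts. The gene did not pass the filter on low counts and was not tested, and no difference was detectable at this depth.

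Baf155 WT mouse 1 was the highest of the Baf155 WT mice for 8 of the 10 members (all but *Egln2* and *Vhl*). The share of all genes for which that mouse was highest is not given here, so this count cannot be set beside it. For *Car9* the order rested on library scaling alone, since Baf155 WT mice 1 and 2 both held 9 counts. The log2 level of Baf155 WT mouse 1 exceeded the mean of Baf155 WT mice 2 and 3 by 0.71 for *Egln3*, 0.66 for *Hif1an*, 0.65 for *Epas1* and 0.55 for *Arnt*. It exceeded them by 0.26 for *Hif1a*, 0.17 for *Egln1* and 0.13 for *Vegfa*. For each of the members given a log2 value here, this difference within the Baf155 WT group was larger in size than the fitted difference between genotypes.

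**Figure D2:**
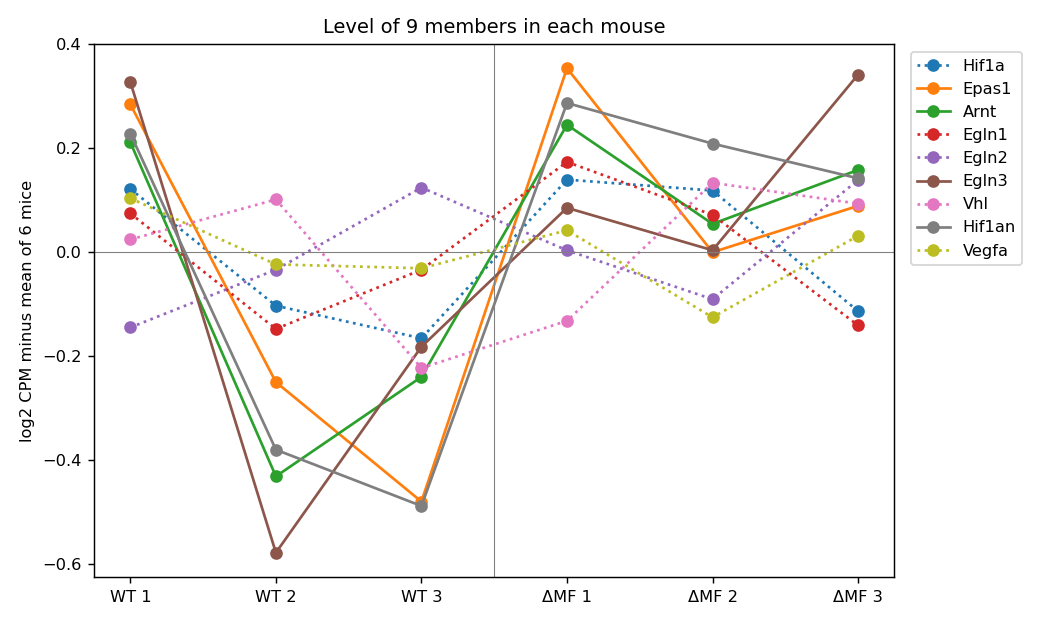
The level of the 9 members tested in each mouse, as log2 CPM minus the mean of that gene over the 6 mice, with solid lines for *Epas1*, *Arnt*, *Egln3* and *Hif1an* and dotted lines for the rest; the lines join values of a gene and the mice have no order within a genotype. The solid lines dip in Baf155 WT mice 2 and 3 and stand near or above 0 in Baf155 WT mouse 1 and in all Baf155 ΔMF mice.

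The comparison without Baf155 WT mouse 1 gave other calls. *Hif1an* then had a log2 fold change of 0.65 (adjusted p = 0.000966 by edgeR), *Epas1* 0.52 (adjusted p = 0.0132 by edgeR), *Arnt* 0.49 (adjusted p = 0.0124 by edgeR) and *Egln3* 0.52 (adjusted p = 0.0451 by edgeR). These 4 of 9 members passed the adjusted limit in that fit. In it 955 genes of the whole table passed as well, against 3 of the 12116 tested with all mice. The number of genes tested without that mouse is not given here, so the 4 of 9 cannot be set beside a share of all genes. When the prefix of the title was added as a covariate, the genotypes were compared between Baf155 WT mouse 1 and Baf155 ΔMF mice 1 and 2, and none of the 9 had an unadjusted p under 0.05. In that fit the log2 fold changes were 0.020 for *Hif1an*, -0.10 for *Epas1*, -0.059 for *Arnt* and -0.28 for *Egln3*. The higher levels in Baf155 ΔMF mice were therefore seen against Baf155 WT mice 2 and 3 and not against Baf155 WT mouse 1.

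**Figure D3:**
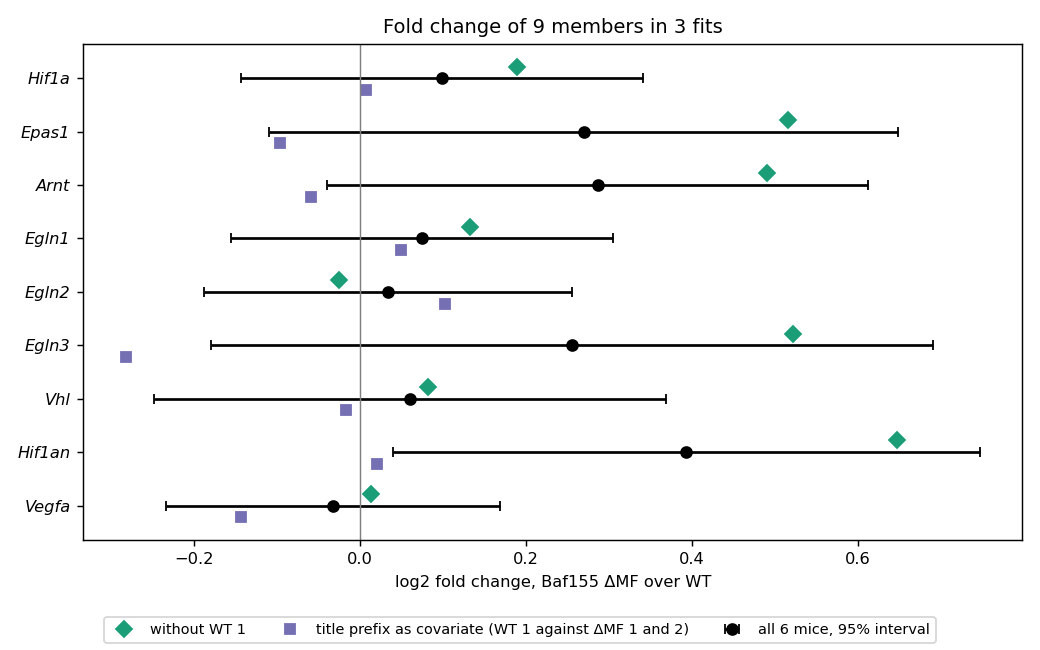
Log2 fold change (Baf155 ΔMF over WT, horizontal axis) of the 9 members tested, with all 6 mice and the 95% interval (black), without Baf155 WT mouse 1 (diamonds) and with the title prefix as a covariate (squares). The diamonds of *Hif1an*, *Epas1*, *Egln3* and *Arnt* lie at 0.49 to 0.65, and their squares between -0.28 and 0.020.

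Marker sums of some cell types also separated Baf155 WT mice 2 and 3 from the rest. Those of fibroblasts, red blood cells and muscle stem cells did not. The summed level of 6 macrophage markers (*Mrc1* the highest) was 78.0, 205 and 172 CPM in Baf155 WT mice and 72.2, 71.3 and 108 CPM in Baf155 ΔMF mice, and each of the 6 was lowest among the Baf155 WT mice in mouse 1. The sum of 8 endothelial markers (*Pecam1* the highest) was 309, 243 and 252 CPM against 311, 327 and 311 CPM. These markers were split. Among the Baf155 WT mice, mouse 1 was highest for 6 of the 8 and lowest for the other 2, *Cldn5* and *Egfl7*. Baf155 WT mice 2 and 3 thus had the lowest endothelial sums of the 6 mice, as they had the lowest levels of *Epas1*, *Arnt*, *Egln3* and *Hif1an*, and the highest macrophage sums. The sum of 9 fiber markers was 147300, 150000 and 150400 CPM against 146000, 143600 and 138600 CPM. The sum of 4 adipocyte markers (*Cfd* the highest) was 32.3, 65.6 and 59.3 CPM against 35.3, 28.2 and 42.1 CPM, and that of 5 fibroblast markers (*Dcn* the highest) was 1575, 1954 and 1910 CPM against 1531, 1415 and 2148 CPM. The sum of 4 pericyte and smooth muscle markers (*Rgs5* the highest) was 774, 612 and 650 CPM against 821, 880 and 740 CPM. The 6 red blood cell markers (*Hbb-bs* the highest) summed to 777, 1227 and 622 CPM against 371, 505 and 805 CPM. The 2 muscle stem cell markers (*Pax7* the higher) were at 3.39 to 4.64 CPM in all mice. *Hbb-b1* was at 0 in 3 of the 6 mice and at 1 count in the others, and no list had all of its markers at 0. The part of these cell types in the levels of the members was not tested.

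Ordered by CPM per kilobase of exon, the members ran from *Vegfa* (41.4, mean of 6 mice) through *Egln1* (30.4), *Egln2* (27.1), *Epas1* (17.4), *Hif1an* (16.3), *Hif1a* (7.34), *Egln3* (6.84), *Arnt* (4.97) and *Vhl* (3.49) to *Car9* (0.267). The ranges over the 6 mice were separate between *Vegfa* and *Egln1*, *Egln2* and *Epas1*, *Hif1an* and *Hif1a*, and *Vhl* and *Car9*. The other neighbors overlapped. *Egln1* was above *Egln2* in 5 of the 6 mice and *Epas1* above *Hif1an* in 5 of the 6, while *Hif1a* was above *Egln3* in 4. In each of the 6 mice, *Vegfa* was the highest member and *Car9* the lowest. The order rests on the annotated exon length, which counts all exons whether or not muscle uses them, and the estimates for *Vegfa* and *Epas1* were not whole numbers in 3 mice and 1 mouse.

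**Figure D4:**
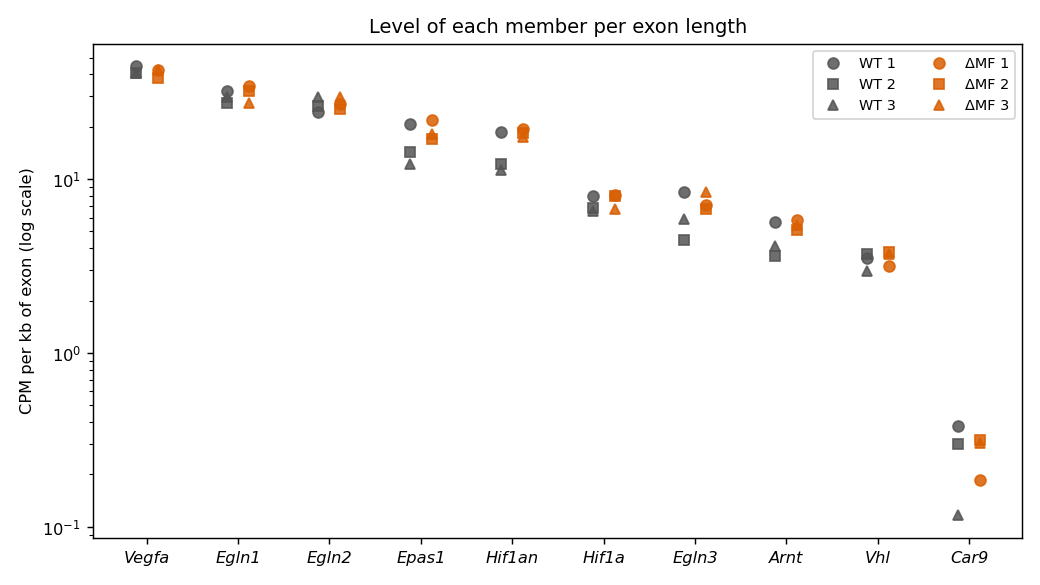
CPM per kilobase of exon (logarithmic axis) of the 10 members in order of their mean, with Baf155 WT mice in grey and Baf155 ΔMF mice in orange. *Vegfa* stands at 37.9 to 44.4 and *Car9* at 0.116 to 0.380, and the points of *Hif1a*, *Egln3*, *Arnt* and *Vhl* lie between 2.98 and 8.48.

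The wider pathway was described with 91 further genes in 6 lists, of which 87 were tested. None had an adjusted p under 0.05 (smallest 0.601), and 12 of the 87 had an unadjusted p under 0.05, of which 6 were higher and 6 lower in Baf155 ΔMF mice. That share was 13.8%, beside 7.95% over all genes tested. DESeq2 and limma-voom also gave 0 at the adjusted limit, with 10 and 16 at the unadjusted one. Their median log2 fold change was -0.024.

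Among 15 HIF subunits, coactivators and regulators, 7 had a fitted value above 0 and 8 below (median -0.063). *Hsp90aa1*, a chaperone that holds unhydroxylated HIF-1α, was at 99.1, 93.7 and 127 CPM in Baf155 WT mice and at 70.3, 90.9 and 80.3 CPM in Baf155 ΔMF mice. It was lower in every Baf155 ΔMF mouse than in every Baf155 WT mouse, with a log2 fold change of -0.40 ± 0.13 (SE; unadjusted p = 0.0106, adjusted p = 0.601 by edgeR). *Rack1*, which competes with that chaperone for HIF-1α, had a log2 fold change of -0.26 (unadjusted p = 0.0547 by edgeR). *Kdm4c*, a histone demethylase and HIF-1 coactivator, had a log2 fold change of 0.22 (unadjusted p = 0.0643 by edgeR). *Hif3a*, a further alpha subunit, was at 0.935 to 2.34 CPM over the 6 mice. *Stat3*, which can join HIF-1α at target promoters, was at 43.6 to 60.7 CPM in Baf155 WT mice and 51.0 to 59.5 CPM in Baf155 ΔMF mice. These last 2 genes were picked after their values were seen, as the third alpha subunit and for the study's interest in STAT3.

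Of 8 genes around the VHL ubiquitin ligase, none had an unadjusted p under 0.05 (median log2 fold change -0.094). The smallest p-values belonged to *Tceb2* (elongin B; log2 fold change -0.30, unadjusted p = 0.0602 by edgeR), *Rbx1* (the RING subunit; -0.17, unadjusted p = 0.102 by edgeR) and *Nedd8* (which activates cullins; -0.18, unadjusted p = 0.117 by edgeR). *Tceb2* overlapped between genotypes, at 108 to 157 CPM in Baf155 WT mice and 97.5 to 126 CPM in Baf155 ΔMF mice. Its lowest Baf155 WT value, 108 CPM, was that of mouse 1. Without that mouse its log2 fold change was -0.45 (adjusted p = 0.0160 by edgeR). This was not particular to *Tceb2*. In that fit 955 genes of the whole table passed an adjusted p of 0.05 by edgeR. *Hsp90aa1*, *Rack1*, *Kdr*, *Nrp1*, *Flt1* and *Car8* of the other lists were among them. The prefix as a covariate gave -0.026 for *Tceb2*, -0.062 for *Rbx1* and -0.14 for *Nedd8*.

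The list of HIF targets in glycolysis and glucose transport held 22 genes, of which 21 were tested, with 6 above 0 and 15 below (median log2 fold change -0.049). *Ldha*, which makes lactate from pyruvate, was at 1815, 1736 and 2067 CPM in Baf155 WT mice and 1730, 1812 and 1891 CPM in Baf155 ΔMF mice. *Pgk1*, a glycolytic kinase, was at 823, 824 and 948 CPM against 753, 760 and 855 CPM. *Slc2a4*, the insulin-responsive glucose transporter, was at 587, 582 and 576 CPM against 558, 559 and 626 CPM. The groups overlapped for all 3, with log2 fold changes of -0.048, -0.13 and -0.0023 and adjusted p-values by edgeR of 0.906, 0.716 and 0.995. *Slc2a3*, a glucose transporter of low abundance here, was higher in every Baf155 ΔMF mouse (19.2, 16.9 and 18.0 CPM) than in any Baf155 WT mouse (15.3, 14.9 and 15.0 CPM), at a log2 fold change of 0.26 (unadjusted p = 0.0311, adjusted p = 0.601 by edgeR). *Eno1*, the widely expressed enolase, was lower in every Baf155 ΔMF mouse (41.9, 45.6 and 48.5 CPM against 51.8, 50.9 and 55.2 CPM), at a log2 fold change of -0.22 (unadjusted p = 0.0396, adjusted p = 0.611 by edgeR). *Pgam1* overlapped between genotypes (log2 fold change -0.33, unadjusted p = 0.0617 by edgeR). It was at 22.3, 21.8 and 23.4 CPM in Baf155 WT mice and 15.6, 15.1 and 23.4 CPM in Baf155 ΔMF mice. The overlap was thus due to Baf155 ΔMF mouse 3. With the prefix as a covariate the log2 fold changes were 0.24 for *Slc2a3*, -0.24 for *Eno1* and -0.54 for *Pgam1*.

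Of 29 other HIF targets, 27 were tested, with 14 above 0 and 13 below (median log2 fold change 0.0010). *Ddit4*, an inhibitor of mTORC1, was at 6.90, 5.28 and 10.4 CPM in Baf155 WT mice and 3.74, 5.40 and 3.04 CPM in Baf155 ΔMF mice, at a log2 fold change of -0.88 (unadjusted p = 0.00979, adjusted p = 0.601 by edgeR). *Ankrd37*, a hypoxia-induced ankyrin repeat gene, was at 2.33, 2.14 and 2.59 CPM against 1.17, 1.35 and 1.64 CPM, at a log2 fold change of -0.76 (unadjusted p = 0.0158, adjusted p = 0.601 by edgeR). *Ankrd37* did not overlap between genotypes, and *Ddit4* did. When the prefix of the title was added as a covariate, the log2 fold changes were -0.59 for *Ddit4* and -0.88 for *Ankrd37*, neither with an unadjusted p under 0.05.

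The VEGF ligands and receptors were tested as 9 genes, with 8 above 0 and 1 below (median log2 fold change 0.19). *Kdr*, the main VEGF receptor of endothelial cells, was higher in every Baf155 ΔMF mouse (53.5, 67.9 and 53.0 CPM) than in any Baf155 WT mouse (49.4, 40.5 and 42.0 CPM), at a log2 fold change of 0.41 ± 0.12 (SE; unadjusted p = 0.00652, adjusted p = 0.601 by edgeR). With the prefix as a covariate, which sets Baf155 WT mouse 1 against Baf155 ΔMF mice 1 and 2, it was 0.30 (unadjusted p = 0.0450 by edgeR). *Nrp1*, a VEGF coreceptor, had a log2 fold change of 0.25 (unadjusted p = 0.0272 by edgeR), and *Flt1*, a VEGF receptor that is also a HIF target, 0.35 (unadjusted p = 0.0733 by edgeR). With the prefix as a covariate *Nrp1* was at 0.16 (unadjusted p = 0.140 by edgeR) and *Flt1* at -0.082 (unadjusted p = 0.563 by edgeR). *Pecam1*, an endothelial marker, had a log2 fold change of 0.32 and did not overlap between genotypes either. It was at 0.071 with the prefix as a covariate. The other endothelial markers were mixed in that fit. *Cldn5* was at 0.80, *Egfl7* at 0.31, *Tek* at 0.0012, *Cdh5* at -0.014, *Tie1* at -0.073, *Esam* at -0.11 and *Emcn* at -0.12. The endothelial marker sum was higher in all Baf155 ΔMF mice than in any Baf155 WT mouse, but only narrowly so for Baf155 WT mouse 1. That mouse was at 308.9 CPM, beside 311.1 and 310.8 CPM in Baf155 ΔMF mice 1 and 3. The part of endothelial cells in the receptor levels was not tested.

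Of the other carbonic anhydrases 9 of 11 were tested, with 4 above 0 and 5 below (median log2 fold change -0.072). *Car13*, a cytosolic form, was at 1.55, 2.30 and 1.34 CPM in Baf155 WT mice and 0.961, 1.04 and 0.819 CPM in Baf155 ΔMF mice. Its log2 fold change was -0.88 (unadjusted p = 0.0241, adjusted p = 0.601 by edgeR), and -0.63 with the prefix as a covariate. It held only 7 to 30 counts per library, and DESeq2 gave it an unadjusted p of 0.0913. *Car8*, which lacks enzyme activity, had a log2 fold change of 0.42 (unadjusted p = 0.0352 by edgeR) and 0.032 with the prefix as a covariate. *Car5b*, a mitochondrial form, had a log2 fold change of -0.57 (unadjusted p = 0.0864 by edgeR) and -0.096 with the prefix as a covariate, and its estimated counts were not whole numbers in any of the 6 mice.

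**Figure D5:**
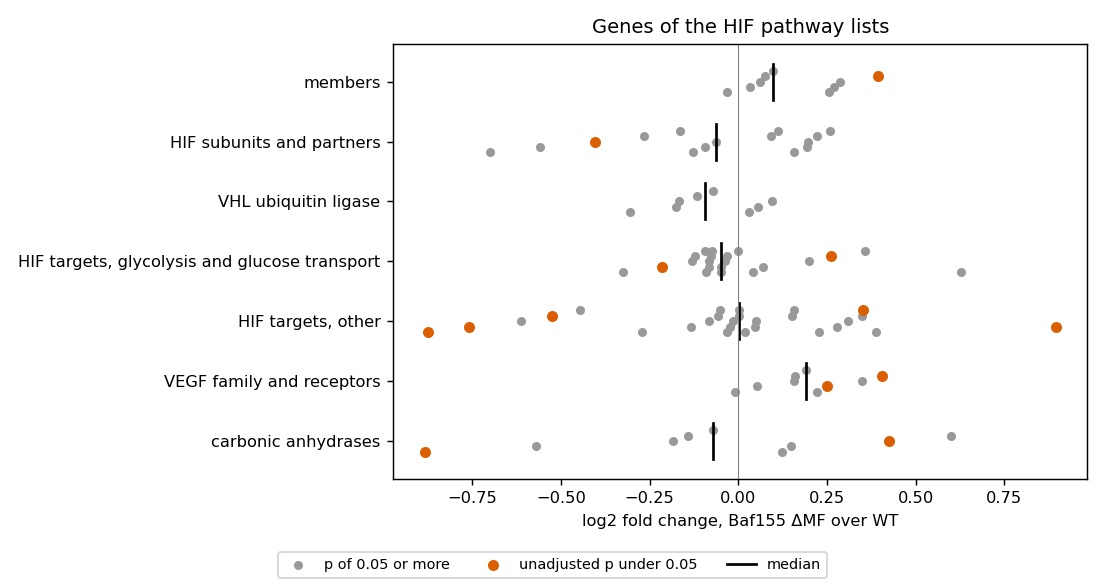
Log2 fold change (Baf155 ΔMF over WT, horizontal axis) of each gene tested in the members and in the 6 lists, with genes of unadjusted p under 0.05 in orange and the median of each list as a bar. Points lie on both sides of 0 in every list, and the medians run from -0.094 for the VHL ubiquitin ligase to 0.19 for the VEGF family.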

How the data were processed

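RNA-seq was performed on pooled hind limb muscles, with 1 library per mouse (TruSeq Stranded Total RNA, 3 mice per genotype). The authors deposited expected counts per gene symbol, not normalized. The submitters' processing notes name CASAVA 1.8.2, cutadapt 1.10, Bowtie2 2.2.7, TopHat2 2.1.1, RSEM 1.2.30 and limma, and the builds mm10 and GRCm38. RSEM splits reads shared between similar genes, so 2919 of the 20632 genes had an estimate that was not whole in at least 1 mouse.

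Estimates were rounded, and the authors' own comparisons were not used. Genes were kept by filterByExpr (minimum count 10) in edgeR 4.0.16 under R 4.3.3, which left 12116 genes. Libraries were scaled by TMM (factors 0.958 to 1.05), and genotypes were compared by its quasi-likelihood F test with no covariates and with Benjamini-Hochberg adjustment over all genes tested. The procedure was tested on simulated data. Unadjusted p-values in the text come from the same test. For single values per mouse, an exact permutation test (two-sided, 20 assignments) was used. The alternatives tried were limma-voom (limma 3.58.1), DESeq2 1.42.0, 3 scalings, 2 filters, a covariate for the prefix of the title, and fits that left out each mouse.

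Levels between genes were divided by the exon length in GENCODE M21 (GRCm38). Promoter windows came from RefSeq. The members and gene lists were chosen with earlier results of these data known, and the lists are not independent evidence. Named were all members, *Smarcc1*, *Ldha*, *Pgk1*, *Slc2a4*, every gene of a pathway list with an adjusted p under 0.05 and its 3 genes with the smallest p, and the most abundant marker of each cell type. *Gnb2l1* and *Figf* are listed as *Rack1* and *Vegfd*. A gene that this rule names is not reported here.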

Additional observations from a re-analysis of the deposited data

How the results depend on the processing

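Genes with an adjusted p under 0.05 numbered 3 with edgeR, 23 with DESeq2, 5 with limma-voom, 17 without a filter on low counts and 16 with the title prefix as a covariate. All 3 genes were called in each of these. The number ran from 0 to 955 when each mouse was left out, with 955 without Baf155 WT mouse 1, 7 without Baf155 WT mouse 3, 1 without Baf155 ΔMF mouse 1, and 0 by edgeR without Baf155 WT mouse 2 or Baf155 ΔMF mouse 2 (where 451 and 568 genes had an unadjusted p under 0.05). The number of members with an adjusted p under 0.05 ran from 0 to 4 over those fits, and with an unadjusted p under 0.05 from 0 to 4. The latter number was 0 with the prefix as a covariate. The 4 calls appeared in no fit that held Baf155 WT mouse 1, and the cause was not tested. Of the 126 log2 fold changes of members under alternatives, 111 kept their direction and side of the limit, 4 passed the limit (all without Baf155 WT mouse 1) and 11 changed sign. With library size only, *Egln2* was at -0.030 and *Vhl* at -0.0025. With the prefix as a covariate, *Epas1* was at -0.097, *Arnt* at -0.059, *Egln3* at -0.28, *Vhl* at -0.016, *Rack1* at 0.044 and *Flt1* at -0.082. When each mouse was left out, the range was -0.026 to 0.11 for *Egln2*, -0.062 to 0.020 for *Vegfa*, -0.029 to 0.14 for *Vhl*, -0.056 to 0.027 for *Slc2a4* and -0.096 to 0.028 for *Ldha*. The difference in the *Egln3* share ran from 0.235 to 2.87 percentage points and that in the log2 ratio of *Hif1a* to *Epas1* from -0.33 to -0.091. No paired analysis was possible because the sample titles do not say which mice of the genotypes belong together. The genotypes share only 1 prefix, MS13, and only 1 of the numbers that follow the prefix in the sample titles. What these numbers stand for is not given in the labels. The prefix itself entered as a covariate. Depth limits *Car9*, at 3 to 9 counts.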
